A study of Mus musculus with 5 samples.

Results

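The genes described here are 10 markers of epithelium and colon carcinoma, Epcam, Cdh1, Krt8, Krt18, Krt19, Krt20, Cdx2, Vil1, Muc1 and Ceacam1. They were picked by symbol, with earlier results of these data known, and each was found once among the 54113 named entries of the count table. RNA from CRC tumours of C57BL/6 mice was sequenced in 5 libraries, 3 from mice kept at 30 °C (thermoneutrality) and 2 from mice kept at 4 °C (cold exposure), both for 2 weeks. Both groups share the strain and the source tissue, and the labels name no allele or transgene. The study's CRC model in this strain is the MC-38 mouse colon adenocarcinoma cell line, an established line grown in an immunocompetent host, so a tumour sample can hold host cells as well as carcinoma cells. The study describes the libraries as 3 and 2 biological samples, but the labels do not say that each came from a separate animal. The p-values measure the spread between these samples, which may not be a spread between animals.

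Epithelial cells are held together by cell adhesion molecules at their lateral membranes and are stiffened by keratin filaments, which assemble from an acidic and a basic keratin. Epcam and Cdh1 (E-cadherin) are adhesion molecules, Krt8 and Krt18 are the paired keratins of simple epithelium, and Krt19 and Krt20 are acidic keratins of ducts and of differentiated intestinal epithelium. Cdx2 is the transcription factor of intestinal identity, Vil1 encodes villin of the brush border, Muc1 is a membrane mucin of glandular epithelium, and Ceacam1 is an adhesion glycoprotein that leukocytes and endothelium also make. Pathologists use these proteins to tell carcinoma from stroma, and many also mark normal glands such as the ducts of the pancreas.

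On the mouse genome GRCm38 (annotation GENCODE M21), Krt8 lies on the minus strand at chr15:101996698-102004482 and Krt18 on the plus strand at chr15:102028180-102032027, with 23697 bases between them. The acidic keratins Krt20 (chr11:99428403-99438150) and Krt19 (chr11:100140810-100148665) share a chromosome, both on the minus strand and 702659 bases apart. Epcam is at chr17:87635979-87651129, Cdh1 at chr8:106603351-106670246, Cdx2 at chr5:147300805-147307270, Vil1 at chr1:74409376-74435559, Muc1 at chr3:89229057-89233381 and Ceacam1 at chr7:25461707-25477603. By the study methods, aligned reads were counted per annotated gene. The exons of Krt8 share 101 bases with a long non-coding RNA on the other strand, Gm36026, which had between 0 and 14 counts, and the pseudogene Krt8-ps had between 0 and 2 counts. Ceacam1 has a close paralog, Ceacam2, with between 4 and 69 counts, and Vil1 shares 49 exonic bases with Usp37 on the other strand. The strand setting and the treatment of reads that match several genes are not given in the sources used here, so a small exchange of reads with these partners cannot be told apart from their own counts.

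RefSeq promoter windows (GRCm38.p6, from 250 bases before to 50 bases after the gene start) were matched for 8 of the 10 genes, Cdh1 and Krt19 being the other two. The windows of 4 genes are shown because they belong to the keratin pair and the mucin, which had the largest ratios between libraries of the markers above 3 counts throughout, and to Epcam, which had the smallest. Capitals mark 3 motifs searched on both strands, TATAAA (the TATA box), GGGCGG (a GC box) and CACCTG (the E-box letters that Snail and Zeb repressors of Cdh1 bind). The windows, 5′ to 3′ on the strand of the gene, are Krt8 at chr15:102004293-102004592 on the minus strand, Krt18 at chr15:102027966-102028265 on the plus strand, Muc1 at chr3:89228806-89229105 on the plus strand and Epcam at chr17:87635729-87636028 on the plus strand.
Krt8: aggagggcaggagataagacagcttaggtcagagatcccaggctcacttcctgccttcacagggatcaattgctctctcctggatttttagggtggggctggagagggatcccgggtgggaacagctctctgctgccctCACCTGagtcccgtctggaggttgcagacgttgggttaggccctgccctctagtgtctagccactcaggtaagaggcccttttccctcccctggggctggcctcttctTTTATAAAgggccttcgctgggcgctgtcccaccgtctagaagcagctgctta
Krt18: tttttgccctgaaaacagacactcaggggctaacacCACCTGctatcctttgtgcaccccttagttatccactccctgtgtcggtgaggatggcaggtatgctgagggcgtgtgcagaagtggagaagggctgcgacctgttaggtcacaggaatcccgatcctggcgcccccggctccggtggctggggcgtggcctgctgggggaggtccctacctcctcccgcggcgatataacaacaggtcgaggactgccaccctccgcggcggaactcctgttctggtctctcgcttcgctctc
Muc1: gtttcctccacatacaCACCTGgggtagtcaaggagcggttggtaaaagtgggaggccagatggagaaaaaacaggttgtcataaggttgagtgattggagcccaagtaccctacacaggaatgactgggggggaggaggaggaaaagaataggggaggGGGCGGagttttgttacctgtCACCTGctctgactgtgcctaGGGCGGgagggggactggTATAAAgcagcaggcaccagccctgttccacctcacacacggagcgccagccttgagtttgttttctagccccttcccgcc
Epcam: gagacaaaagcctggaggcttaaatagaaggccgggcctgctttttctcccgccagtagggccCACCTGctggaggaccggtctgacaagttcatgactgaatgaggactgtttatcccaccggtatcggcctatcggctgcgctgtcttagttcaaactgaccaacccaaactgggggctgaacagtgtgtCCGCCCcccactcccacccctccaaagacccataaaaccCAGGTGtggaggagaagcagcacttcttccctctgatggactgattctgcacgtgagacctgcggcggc
The Krt8 window held TATAAA 2 times, as overlapping matches on the opposite strands of one run of letters, and the Muc1 window held it 1 time. CACCTG occurred 2 times in the Muc1 window, 2 times in the Epcam window and 1 time each in the Krt8 and Krt18 windows. Over the 8 genes, 3 windows held TATAAA, 3 held GGGCGG and 5 held CACCTG, while 13.6%, 35.7% and 20.2% of the 32851 promoter windows of the table held them. These matches are letters only and were not tied to the measured levels.

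Depth ran from 16191708 to 20320525 counts per library over the named genes, so that a count of 3, taken as the floor, equals 0.148 to 0.185 CPM (counts per 1000000 counts). Intervals given for single libraries are exact Poisson 95% intervals of the count and cover counting error only. A pair of libraries stood apart. The 34 genes of a pancreatic acinar list took 29.6% of the counts of 30 °C replicate 2 and 0.289% of those of 4 °C replicate 2, against 0.0101%, 0.00431% and 0.00344% in 30 °C replicates 1 and 3 and 4 °C replicate 1. Erythroblast genes summed to between 13747 and 35485 CPM and B cell genes to between 1493 and 4464 CPM, whereas the 10 markers summed to between 55.7 and 205 CPM. In bulk samples such as these, fewer cells of a type and less RNA per cell cannot be told apart.

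The label of colon carcinoma was checked against the members themselves. Epcam, Cdh1, Krt8, Krt18, Krt20, Muc1 and Ceacam1 had more than 3 counts in every library. Krt19 had more than 3 counts only in 30 °C replicate 2 and 4 °C replicate 2, and Cdx2 only in 30 °C replicate 1 and 4 °C replicate 2. Vil1 had more than 3 counts only in 4 °C replicate 1, with 4. The 2 markers of intestinal identity, Cdx2 and Vil1, were therefore at or near 0 in libraries of both temperatures. Their levels in the carcinoma line itself are not given in the sources used here, so their low counts cannot decide whether carcinoma cells were present. Erythroblast and B cell transcripts were in sum far higher than the markers in these samples, which the labels call tumour tissue. The 10 genes of a splenic stroma list summed to 1599, 627 and 1375 CPM at 30 °C and to 1569 and 1683 CPM at 4 °C, with at least 9 of the 10 above 3 counts in each library. Hmox1 and Mfge8 were the highest genes of that list. Their TMM-scaled means were 605 and 362 CPM at 30 °C and 523 and 688 CPM at 4 °C. Tlx1, a transcription factor needed for spleen formation and chosen here after its values were seen, was far lower, between 10.5 and 30.2 CPM. The share of carcinoma cells in the samples was not tested, so the marker levels are those of the sequenced tissue as a whole.

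**Figure D1:**
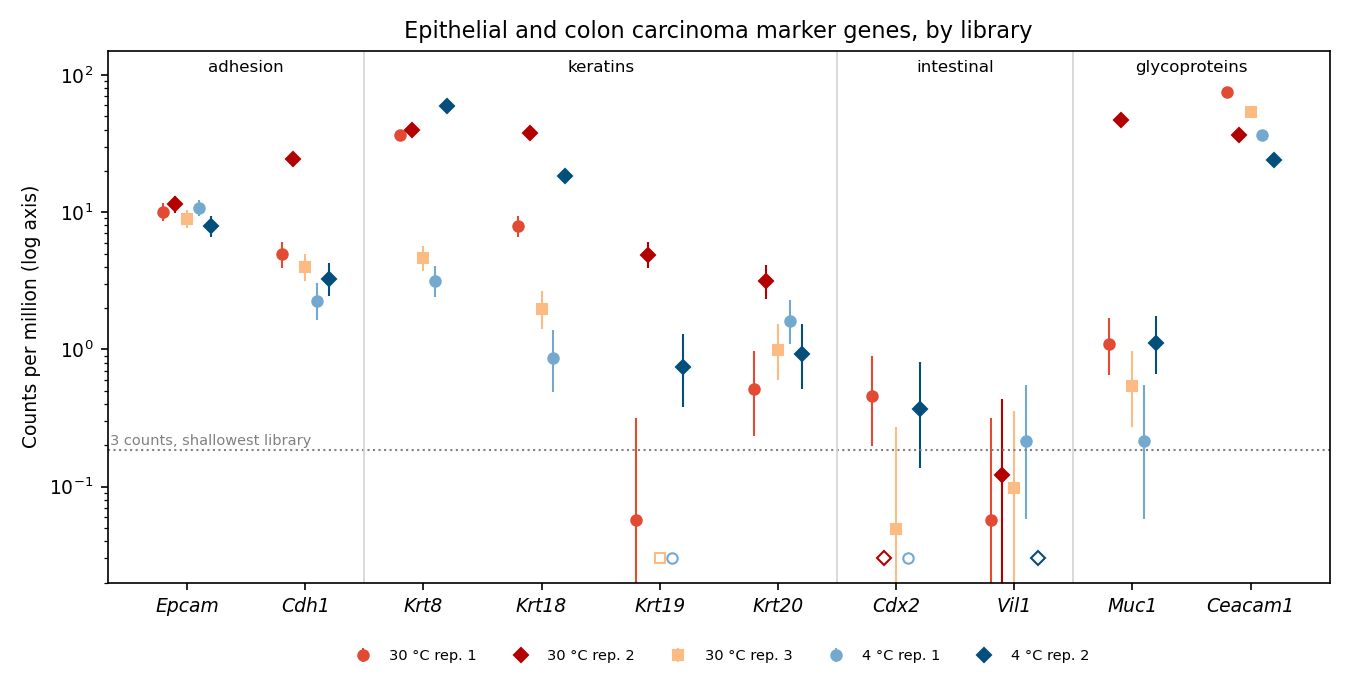
Level of each of the 10 marker genes in each library, in CPM on a log axis, with exact Poisson 95% intervals of the count as bars. Diamonds are the 2 libraries with pancreatic reads, open symbols near the bottom are counts of 0, and the dotted line is 3 counts in the shallowest library. Epcam stays between 7.91 and 11.4 CPM, while Muc1 spans 0.215 to 46.9 CPM.

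No marker passed the test between temperatures. Of the 10 genes, 8 passed the filter on low counts and were tested among 16133 genes. By the edgeR quasi-likelihood test 0 of the 8 had a Benjamini-Hochberg adjusted p under 0.05, as did 0 of all genes (0%). At an unadjusted p under 0.05, 1 marker (Ceacam1, lower at 4 °C) and 1090 genes (6.76%) passed. Of all genes tested, 4.17% passed it with a lower and 2.58% with a higher level at 4 °C. The Wald test of DESeq2 called 0 of the 5 markers to which it gave an adjusted p, and 118 of 11697 genes (1.01%). The fitted log2 fold change of 4 °C over 30 °C was below 0 for all 8 tested markers, with a median of −1.03, whereas 49.3% of all genes tested had a value below 0 and their median was 0.0064. For Epcam, Krt8, Krt18 and Krt20 the sign turned when 30 °C replicate 2 was left out. The groups did not overlap in TMM-scaled CPM for 2 markers, Cdh1 and Ceacam1, and for 3752 genes (23.3%).

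Of the adhesion molecules, Epcam was level in CPM without TMM scaling. It had 10.1, 11.4 and 8.96 CPM at 30 °C and 10.7 and 7.91 CPM at 4 °C. Its groups overlapped, and on this scale its lowest and highest libraries differed by 1.45 times, a ratio that 94.9% of the genes tested exceeded. After TMM scaling 30 °C replicate 2 stood out, with levels of 9.37, 15.5 and 7.95 CPM at 30 °C and 9.95 and 7.67 CPM at 4 °C. The log2 fold change of Epcam was −0.31 ± 0.35 (SE, adjusted p = 0.887), and it was 0.015 without 30 °C replicate 2.

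Cdh1 had 4.92, 24.4 and 3.99 CPM at 30 °C and 2.26 and 3.27 CPM at 4 °C, from 86, 403, 81, 42 and 53 counts. Every 4 °C library lay below every 30 °C library in CPM, a scale on which the groups did not overlap for 2642 genes (16.4%). The highest 30 °C library, replicate 2, held 6.11 times the CPM of the lowest 30 °C library. TMM-scaled means of Cdh1 were 13.7 ± 16.8 CPM (SD, n = 3) and 2.63 ± 0.768 CPM (SD, n = 2). The log2 fold change of Cdh1 was −2.37 ± 1.14 (SE, adjusted p = 0.765). Without 30 °C replicate 2 it moved to −0.64, and over the leave-one-out settings and other fits it stayed between −2.83 and −0.64.

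The keratins of simple epithelium varied widely among samples kept at the same temperature. Krt8 had 36.3, 39.6 and 4.63 CPM at 30 °C and 3.17 and 59.7 CPM at 4 °C, from 634, 655, 94, 59 and 966 counts. It was high in 30 °C replicates 1 and 2 and in 4 °C replicate 2 and low in the other two libraries. The 2 libraries at 4 °C differed by 18.8 times in Krt8 and the group means in CPM by 1.17 times. TMM-scaled means were 30.5 ± 25.0 CPM (SD, n = 3) at 30 °C and 30.4 ± 38.8 CPM (SD, n = 2) at 4 °C. The log2 fold change of Krt8 was −0.0034 ± 1.55 (SE, adjusted p = 0.999), and leaving out single libraries gave values from −3.39 (without 4 °C replicate 2) to 0.93 (without 4 °C replicate 1).

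Krt18, the filament partner of Krt8, had 7.89, 37.7 and 1.97 CPM at 30 °C and 0.860 and 18.5 CPM at 4 °C, from 138, 624, 40, 16 and 299 counts. The same 3 libraries were high and the same 2 low as for Krt8, and the groups overlapped. Its CPM differed by 19.2 times within 30 °C and by 21.5 times within 4 °C, and its log2 fold change was −1.10 ± 1.90 (SE, adjusted p = 0.930). Without 30 °C replicate 2 the value was 1.03 and without 4 °C replicate 2 it was −4.66. The ratio of Krt8 to Krt18 counts was 4.59, 1.05 and 2.35 in the 30 °C libraries and 3.69 and 3.23 in the 4 °C libraries, so the partners did not keep a fixed ratio. The ratio was lowest in 30 °C replicate 2, the library with most acinar counts.

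Krt19, a keratin of ducts, had 1, 81 and 0 counts at 30 °C and 0 and 12 counts at 4 °C. It was above the floor in the 2 libraries with pancreatic reads only, at 4.90 CPM (3.89 to 6.09) in 30 °C replicate 2 and 0.741 CPM (0.383 to 1.30) in 4 °C replicate 2. The counts of 0 allow up to 0.148 CPM in 30 °C replicate 3 and 0.161 CPM in 4 °C replicate 1 by the floor of 3 counts, or 0.182 and 0.198 CPM by the upper limits of the exact Poisson intervals. Its fitted log2 fold change of −2.61 ± 2.57 (SE, adjusted p = 0.875) rests on those libraries, and without 30 °C replicate 2 Krt19 was not tested.

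Krt20, a keratin of differentiated intestinal cells, had 9, 52 and 20 counts at 30 °C and 30 and 15 counts at 4 °C. At 3.14 CPM it was highest in 30 °C replicate 2, and the other 4 libraries lay between 0.515 and 1.61 CPM with overlapping groups. The log2 fold change of Krt20 was −0.60 ± 0.94 (SE, adjusted p = 0.923), and it was 0.80 without 30 °C replicate 2.

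The 2 genes of intestinal identity were too low to be tested. Cdx2 had 8, 0 and 1 counts at 30 °C and 0 and 6 counts at 4 °C, the highest level being 0.458 CPM (0.198 to 0.902) in 30 °C replicate 1. Its 6 counts were in 4 °C replicate 2, so each temperature had 1 library with more than 3 counts. Vil1 had between 0 and 4 counts in every library, which is at most 0.215 CPM (0.0586 to 0.550).

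Of the glycoproteins, Muc1 had 1.09, 46.9 and 0.541 CPM at 30 °C and 0.215 and 1.11 CPM at 4 °C, from 19, 776, 11, 4 and 18 counts. It was high in 30 °C replicate 2 alone, by 86.7 times over the lowest 30 °C library, and the groups overlapped over the other 4 libraries. Muc1 had the most negative fitted log2 fold change of the markers, −5.10 ± 3.01 (SE, adjusted p = 0.820), and this became −0.25 without 30 °C replicate 2.

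Ceacam1 had 75.5, 36.5 and 53.2 CPM at 30 °C and 36.6 and 24.0 CPM at 4 °C, from 1320, 603, 1082, 681 and 388 counts. Neighbours in this order, 30 °C replicate 2 and 4 °C replicate 1, had nearly the same CPM, and the groups overlapped on this scale. After TMM scaling the levels were 70.2, 49.5 and 47.2 CPM at 30 °C and 33.9 and 23.2 CPM at 4 °C, and the groups no longer overlapped. The log2 fold change of Ceacam1 was −0.96 ± 0.27 (SE, unadjusted p = 0.0108, adjusted p = 0.689 by edgeR), lower in 2 of 2 libraries at 4 °C on that scale. Its value stayed between −1.26 and −0.73 in all alternatives, including −1.05 without 30 °C replicate 2, and its adjusted p ranged from 0.0908 with DESeq2 to 1.00. Of the 8 tested markers, Ceacam1 was the one whose highest library was 30 °C replicate 1, as it was for 24.7% of all genes.

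**Figure D2:**
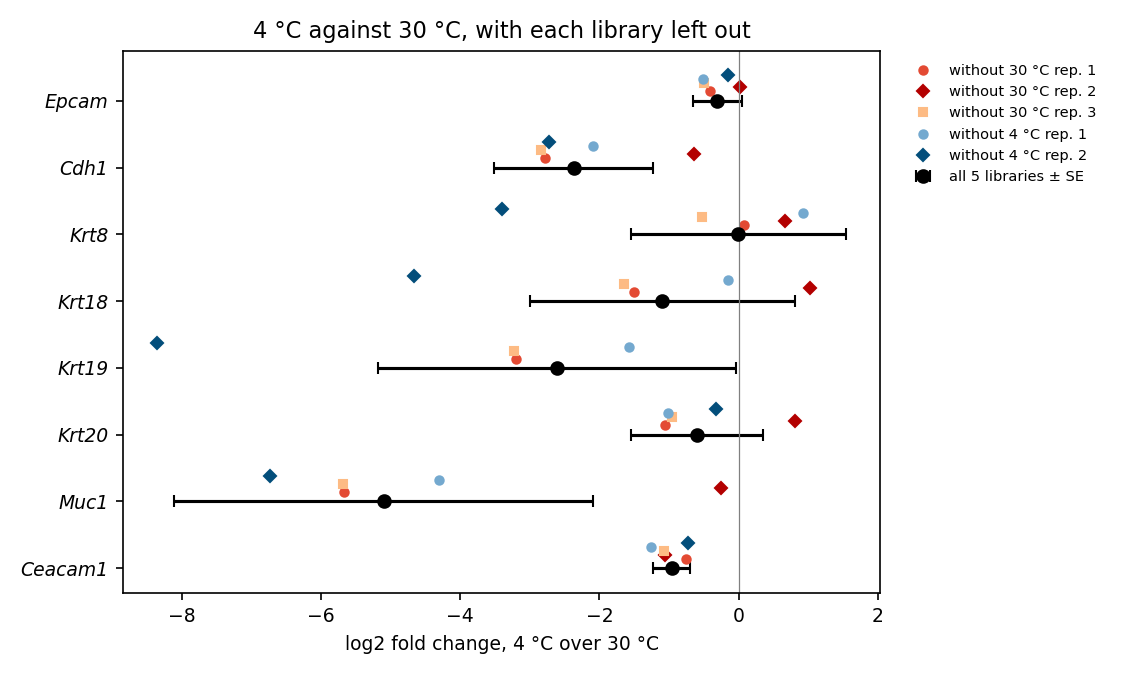
Fitted log2 fold change of 4 °C over 30 °C for the 8 tested markers, with all 5 libraries (black, bars are ± SE) and with each library left out in turn (coloured). Ceacam1 stays between −1.26 and −0.73, whereas Krt18 runs from −4.66 to 1.03 and Krt8 from −3.39 to 0.93.

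Neutrophils also express Ceacam1, and their transcripts shared its fitted direction and its highest library but not its order of libraries. All 12 genes of a neutrophil list had fitted values below 0 at 4 °C, with a median log2 fold change of −1.36, 4 at an unadjusted p under 0.05 and 0 past the adjusted threshold. Their sum was 13746, 6341 and 3437 CPM at 30 °C and 2739 and 4211 CPM at 4 °C, highest like Ceacam1 in 30 °C replicate 1, and no gene of the list was at 0 in any library. The order of the other libraries differed between the list and Ceacam1. The part of these transcripts in the Ceacam1 values was not tested.

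The levels in 30 °C replicate 2 were examined apart because of its pancreatic reads. It was the highest library for 6 of the 8 tested markers (Epcam, Cdh1, Krt18, Krt19, Krt20 and Muc1), as it was for 658 of 16133 genes (4.08%). In CPM computed without the acinar genes it was again the highest for 6 markers, and for 16% of genes. It exceeded both other 30 °C libraries by over 2 times for 5 markers (Cdh1, Krt18, Krt19, Krt20 and Muc1) and for 260 genes (1.61%). Without the acinar counts this was so for 5 markers and 2.68% of genes. Krt8 and Ceacam1 were the tested markers that were not highest there. Krt19 had more than 3 counts only in 30 °C replicate 2 and 4 °C replicate 2 and passed the filter through them. The filter itself therefore favoured its place in these counts.

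In 4 °C replicate 2, 4 markers were over 2 times higher than in 4 °C replicate 1 (Krt8, Krt18, Krt19 and Muc1), as were 972 genes (6.02%), and 0 markers were over 2 times lower, against 6.69% of genes. Of these Krt19, with 12 and 0 counts, again passed the filter through the libraries with pancreatic reads. The Krt8 level of 4 °C replicate 2, 59.7 CPM (56.0 to 63.5), was the highest of any library, and 23% of all genes had their highest CPM there. Of the 34 acinar genes, 34 had more than 3 counts in 30 °C replicate 2 and 32 in 4 °C replicate 2, against 24, 18 and 9 in 30 °C replicates 1 and 3 and 4 °C replicate 1. In that last library 15 of them were at 0, among them Prss1, Clps and Amy2a5. In 30 °C replicates 1 and 3, with acinar sums of 100.9 and 43.1 CPM, Krt8 stood at 36.3 and 4.63 CPM.

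Some genes of a pancreatic duct list, not all, were high in the libraries where markers were high. The 10 genes of the list summed to 19.3, 516 and 14.9 CPM at 30 °C and to 15.8 and 26.1 CPM at 4 °C. Most of the sum in 30 °C replicate 2 was Tff2, a secreted trefoil peptide, with 482 CPM, and Tff2 was 7.47 CPM in 4 °C replicate 2 and at most 0.0572 CPM elsewhere. Sox9, a transcription factor of ducts, had 4.40, 4.72 and 1.92 CPM at 30 °C and 1.34 and 4.14 CPM at 4 °C, high in the same 3 libraries as Krt8 and Krt18. The duct and islet regulator Pdx1, chosen after its values were seen, had 2.74, 2.00 and 0.492 CPM at 30 °C and 0.215 and 3.46 CPM at 4 °C. Bicc1, the second gene of the list by mean level, went another way, with 9.32, 10.2 and 10.1 CPM at 30 °C and 13.4 and 8.28 CPM at 4 °C, highest in 4 °C replicate 1 where Krt8 and Krt18 were lowest. Ambp and Slc4a4, also looked at after their values were seen, did not share the keratin pattern either. Islet genes reached 70.6 CPM in 30 °C replicate 2 and at most 0.247 CPM elsewhere. The sum of a mesothelial list lay between 12.3 and 23.7 CPM in all libraries, but its genes did not share a pattern. Msln had 7.32, 0.484 and 0.295 CPM at 30 °C and 0.376 and 4.14 CPM at 4 °C. Its level was high in 30 °C replicate 1 and 4 °C replicate 2, where Krt8 was also high. In 30 °C replicate 2, where Krt8 was high too, Msln was low. Wt1 and Gpm6a, with higher mean levels than Msln, were highest in 4 °C replicate 1, where Krt8 was lowest. Upk3b, Upk1b and Aldh1a2, looked at after their values were seen, were highest in 4 °C replicate 2, where Krt8 was highest. They had 1.79, 0.926 and 3.77 CPM there. Lrrn4 was highest in 30 °C replicate 1 and Nkain4 in 30 °C replicate 3, and Muc16 and Bnc1 had at most 3 counts. The part of these cell types in the levels of the markers was not tested.

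**Figure D3:**
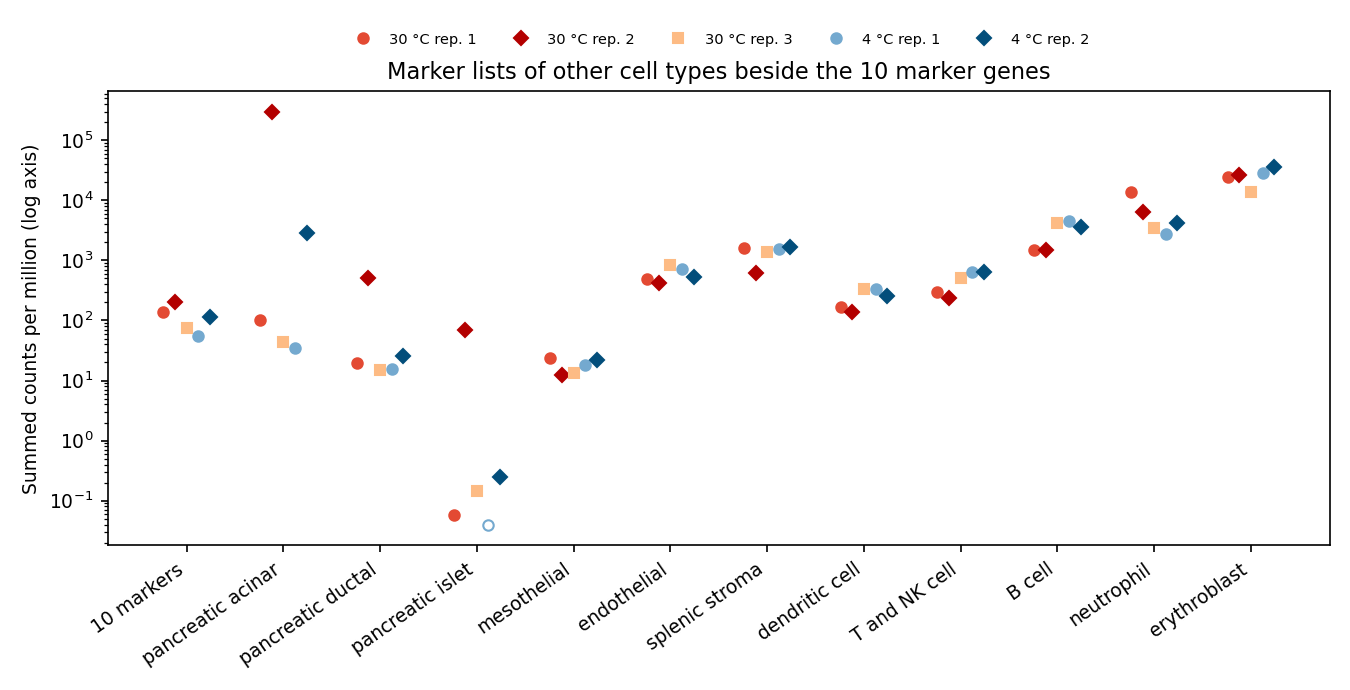
Summed CPM (log axis) of the 10 markers and of marker lists of other cell types in each library, with an open symbol for a sum of 0. The acinar, ductal and islet sums are highest in 30 °C replicate 2, and the B cell and erythroblast sums exceed the sum of the 10 markers in every library.

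Summed over the 10 markers, the level was 137, 205 and 74.5 CPM at 30 °C and 55.7 and 116 CPM at 4 °C. The highest 2 libraries were at 30 °C, and the groups overlapped. The means were 139 ± 65.2 CPM (SD, n = 3) and 86.0 ± 43.0 CPM (SD, n = 2). The difference of −52.6 CPM did not exceed the SD of the 30 °C group. Its two-sided p was 0.4 by an exact permutation test, whose 10 splits allow no p below 0.2. Ceacam1 made up 55.2%, 17.8% and 71.5% of these counts at 30 °C and 65.7% and 20.6% at 4 °C, and the sum without it was 61.3, 168 and 21.2 CPM at 30 °C and 19.1 and 92.5 CPM at 4 °C.

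By role, the adhesion pair summed to between 11.2 and 35.8 CPM and the 4 keratins to between 5.64 and 85.4 CPM. The keratin sum was 44.7, 85.4 and 79.8 CPM in 30 °C replicates 1 and 2 and 4 °C replicate 2 and 7.58 and 5.64 CPM in the remaining libraries, so the high libraries were of both temperatures. Cdx2 and Vil1 together stayed between 0.121 and 0.515 CPM.

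**Figure D4:**
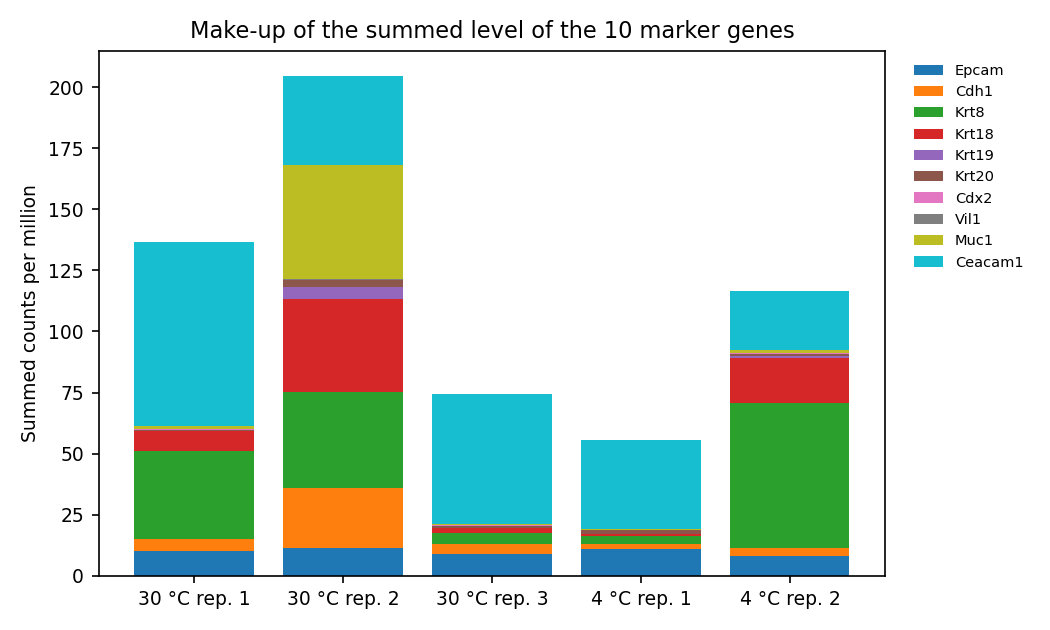
Stacked CPM of the 10 markers in each library, with the axis starting at 0. The total runs from 55.7 CPM in 4 °C replicate 1 to 205 CPM in 30 °C replicate 2, and Ceacam1 is the largest share in 30 °C replicates 1 and 3 and 4 °C replicate 1.

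Levels of different genes were compared per length, as CPM divided by the exon length in kilobases (RPKM, with exon lengths from GENCODE M21). By mean RPKM over the 5 libraries, Krt8 was first at 14.6, followed by Krt18 at 9.31, Ceacam1 at 7.78, Epcam at 4.47, Muc1 at 4.25 and Cdh1 at 1.70. Krt20 at 0.745, Krt19 at 0.614, Cdx2 at 0.0776 and Vil1 at 0.0277 RPKM came last. The ranges of neighbours in this order overlapped. Krt8 ran from 1.62 to 30.5 RPKM and Krt18 from 0.598 to 26.3 RPKM, while Epcam ran from 3.60 to 5.21 RPKM and Ceacam1 from 4.13 to 13.0 RPKM. Within 4 °C replicate 1 Ceacam1 was the highest marker per length at 6.30 RPKM and Epcam came next at 4.90 RPKM, above Krt8 at 1.62 RPKM.

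**Figure D5:**
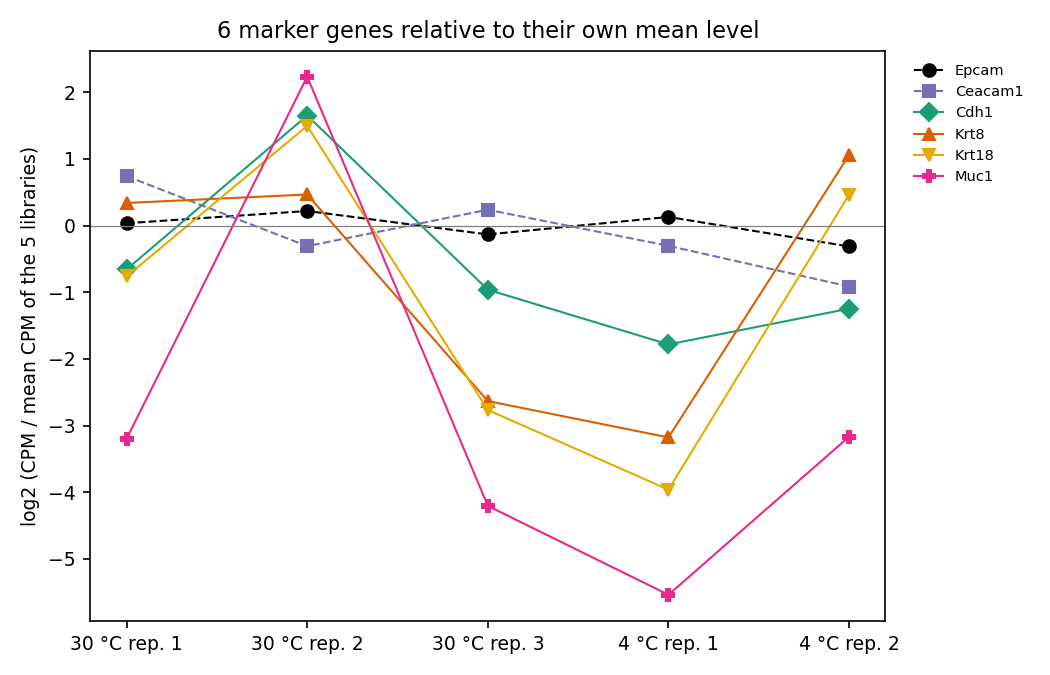
Level in CPM, without TMM scaling, of 6 markers in each library relative to the mean of that marker over the 5 libraries, on a log2 scale. Lines join the points of a gene and imply no order of the libraries. Krt8 and Krt18 are low in 30 °C replicate 3 and 4 °C replicate 1, Muc1 is high in 30 °C replicate 2 alone, and Epcam stays near 0.

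The likeness of patterns was measured as the root mean square distance of centred log2 TMM-scaled CPM over the 5 libraries. Among the markers, the closest pairs were Epcam and Ceacam1 at 0.530, Epcam and Krt20 at 0.699 and Krt8 and Krt18 at 0.725, and the farthest was Muc1 and Ceacam1 at 2.62. Epcam and Ceacam1 had the smallest ratios between libraries of the tested markers, 1.45 and 3.15 times in CPM. Of all genes tested, 94.9% exceeded the ratio of Epcam and 18.9% that of Ceacam1. Over all tested genes the nearest to Krt8 were Igfbp6 (0.404) and Sgsm1 (0.441), and the nearest to Krt18 were Sgsm1 (0.456) and Epn3 (0.579). The nearest gene to Muc1 was Amy1 (0.298), an amylase gene, with 1.77, 75.4 and 0.591 CPM at 30 °C, and the next was Cth (0.528). Cdh1 was nearest to Ccdc149 (0.324) and Tmem97 (0.330), and Krt19 to Fmo2 (0.501) and Nipal2 (0.593). Krt20 was nearest to Ripk4 (0.109) and Vsig2 (0.168), Epcam to Gm15787 (0.0633) and Gm46522 (0.0679), and Ceacam1 to 4930599N23Rik (0.0881) and Ighv2-9-1 (0.123). Distances of low genes are shrunk by the prior count of 2 and rest on few counts.

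The wider epithelial programme was examined in lists of genes around the markers, and 0 of the 57 tested genes of these 6 lists passed the adjusted threshold. Of 19 other keratins, 4 passed the filter, 1 with a value above and 3 with a value below 0, and their median log2 fold change was −0.06. Krt80 was the highest of them with 15.7, 10.3 and 24.6 CPM at 30 °C and 15.8 and 17.5 CPM at 4 °C. Unlike Krt8, it was not low in 30 °C replicate 3.

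Of 18 tested junction genes, 13 had values below 0, with a median of −0.15, and 1 passed the unadjusted threshold in each direction. The catenins that couple cadherins to actin were the highest, Ctnnb1 with 320, 218 and 319 CPM at 30 °C and 329 and 264 CPM at 4 °C, followed by Ctnna1 and Jup. Ctnnb1 had a log2 fold change of −0.06 ± 0.16 (SE, adjusted p = 0.955). Catenins are made in many cell types. Of 11 tested regulators and effectors of the epithelial programme, 7 had values below 0, with a median of −0.15. Spint2, an inhibitor of membrane serine proteases, was the highest with between 55.8 and 81.2 CPM, and its log2 fold change was −0.01 ± 0.36 (SE, adjusted p = 0.995). Including untested genes, 19 of the 20 listed regulators had more than 3 counts in 30 °C replicate 2. In 30 °C replicates 1 and 3 this number was 12 and 13, and in 4 °C replicates 1 and 2 it was 13 and 15. For the 27 listed junction genes it was 27 in 30 °C replicate 2, against 19, 21, 19 and 23 in the same order.

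Of 32 further intestinal and colon genes, 11 were tested, 6 with values below 0 and a median of −0.44, and 8 were at 0 in every library. Car1, a carbonic anhydrase of colon that red-cell precursors also make, led with between 137 and 297 CPM, and Cdh17, a cadherin of intestine that B cells can make, had 7.89, 6.53 and 22.2 CPM at 30 °C and 22.2 and 10.1 CPM at 4 °C. Cdh17 was lower in the 3 libraries where Krt8 was high. In the family of Ceacam1, Ceacam10 had 11.9 CPM in 30 °C replicate 1 and between 1.61 and 2.54 CPM elsewhere, with a log2 fold change of −1.53 ± 0.77 (SE, adjusted p = 0.770).

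Of 10 mesenchymal state genes, which carcinoma cells can switch on while Cdh1 and the keratins fall, 7 had values above 0, with a median of 0.26, and 1 passed the unadjusted threshold. Vim, the intermediate filament of mesenchymal cells and leukocytes, had 751, 292 and 449 CPM at 30 °C and 520 and 939 CPM at 4 °C. On this scale Vim was highest in the library where Krt8 was highest. It was lowest in 30 °C replicate 2, where Krt18, Cdh1 and Muc1 were highest, but the acinar counts lower the CPM of all other genes there. With the acinar genes left out of the total, that library had 414 CPM of Vim, near the 449 CPM of 30 °C replicate 3. Whether Vim moved against the epithelial markers was not tested. The log2 fold change of Vim was 0.48 ± 0.37 (SE, adjusted p = 0.851).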

How the data were processed

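RNA from 3 CRC tumours at 30 °C and 2 at 4 °C was sequenced after 2 weeks of exposure, and groups and replicate numbers were taken from the labels. The authors deposited a table of raw counts per gene. The study methods name featureCounts 2.0.0 on the Gencode vM19 annotation (GRCm38) for the counting. The submitters' processing notes name fastp, HISAT and RSEM instead, so the tool that made the counts is not certain. The strand setting and multi-mapping rule are not given in the sources used here. Of 54446 entries, 333 had no name (0.0101% to 0.0170% of counts) and were left out, and 0 value columns were unused. Genes were filtered with filterByExpr, scaled by TMM and tested across all genes with the quasi-likelihood test of edgeR 4.0.16 in R 4.3.3 without covariates (call at a Benjamini-Hochberg adjusted p under 0.05), since the values were counts. The SE is the log2 fold change divided by the square root of F. The script was tested on simulated data. Sums per library were compared by exact permutation tests. CPM are scaled to 1000000 counts on named genes.

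Alternatives were the Wald test of DESeq2 1.42.0 (the test of the study), RLE and upper-quartile scaling, no filter, a minimum of 10 counts, no robust estimation, the replicate number as a block, no acinar genes, each library left out, and both libraries with pancreatic reads left out. Genes named were all markers, up to 3 genes of each list with the highest mean CPM and every gene past the threshold, and the 2 genes nearest in pattern to each tested marker with a mean of 1 CPM or more. The markers and lists were chosen with earlier results of these data known.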

Additional observations from a re-analysis of the deposited data

How the results depend on the processing

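The count of markers called (0) and of genes called in the wider epithelial lists (0) was the same in all 14 alternatives, although over all genes DESeq2 called 118 where edgeR called 0, and all 11 alternatives kept the sign of the difference in the summed level, which ranged from −84.7 to −19.6 CPM when single libraries were left out. Cdh1, Ceacam1, Krt19 and Muc1 kept their direction wherever they were tested. Leaving out single libraries moved the log2 fold change of Krt8 from −3.39 to 0.93, of Krt18 from −4.66 to 1.03, of Krt20 from −1.06 to 0.80 and of Epcam from −0.51 to 0.015. Krt8 was also 0.073 with upper-quartile scaling and 0.015 with no filter. Without both libraries that hold pancreatic reads Epcam was 0.18 and Krt20 1.11. For these, the cause was not tested. In fits without a 4 °C library the lone sample is assumed to vary like the other group.

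Replicate numbers are shared by the groups, but the labels tie them to no batch, and only 2 pairs exist. Deviations from the group means correlated at −0.255 for number 1 and 0.259 for number 2. The value between 30 °C replicate 3 and 4 °C replicate 1 was 0.616. With 2 libraries at 4 °C their deviations are exact opposites, so these correlations cannot decide whether the numbers mark pairs. With the replicate block, 44 genes and 0 markers were called, the log2 fold change moved most for Krt8 (−1.64 against −0.0034 without the block), followed by Krt18 (−2.27, adjusted p = 0.120 by edgeR, against −1.10), and no wider epithelial gene was called. Depth limits Cdx2, Vil1 and Krt19, whose counts reached 0 in some libraries.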
